A study of Neurospora crassa with 6 samples.

Results

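Transcripts of 6 heat shock proteins of the filamentous fungus Neurospora crassa were followed in a mutant lacking an intact period-2 (prd-2), a gene of the circadian clock, and in its control. The 6 genes were taken by locus tag: hsp70-1 (NCU09602), hsp70-5 (NCU08693), hsp80 (NCU04142), hsp60 (NCU01589), hsp98 (NCU00104) and hsp30 (NCU09364). All 6 were found among the 9730 genes of the deposited table, and all 6 were among the 7797 genes with a mean of at least 1 FPKM, which were tested. FPKM is a fragment count corrected for gene length and library size. The mutant cultures were of strain 1810, with the genotype ras-1 bd prd-2::barR, where the resistance marker barR interrupts prd-2. The control cultures were of strain 328-4, with the genotype ras-1 bd. The bd allele, present in all 6 cultures, makes the rhythm of spore formation visible, and all were of mating type A. Each strain was grown as 3 liquid cultures, from a 6 mm disc of mycelium, for 48 h in Bird medium (1.8% glucose) under constant light at 25 °C with shaking. The study's design text calls the 3 cultures biological triplicates. A single strain stood for each genotype, so the effect of prd-2 and that of any other difference between the strains cannot be told apart. No culture was heat shocked, and the values are levels in unstressed growth.

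Heat shock proteins are molecular chaperones. They bind unfolded or misfolded proteins, help them fold or cross membranes, and take aggregates apart, and many are made in larger amounts after heat under the control of heat shock transcription factors. HSP70 proteins hold short exposed stretches of a client protein. HSP90 proteins, such as the product of hsp80 in Neurospora, act later on clients such as kinases and receptors. HSP60 is a barrel-shaped chaperonin of the mitochondrial matrix, HSP100 proteins such as HSP98 pull proteins out of aggregates, and small heat shock proteins such as HSP30 hold denatured proteins in a soluble state. HSP60 is thus not a cytosolic protein, and the 6 genes are described here as heat shock proteins rather than as cytosolic chaperones.

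The libraries were alike in scale. Summed FPKM ranged from 664476 to 688885 in the mutant cultures and from 657467 to 672543 in the control cultures, and 7657 to 7681 genes reached 1 FPKM in the mutants against 7810 to 7852 in the controls. The gene disrupted in the mutant, NCU01019 (assigned to prd-2 from knowledge of the study), measured between 6.29 and 7.69 FPKM in the mutants and between 24.7 and 27.3 FPKM in the controls. Its span overlaps that of NCU01021 in the NC12 annotation.

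Of the 6 heat shock proteins, 3 rose in the prd-2 mutant at an adjusted p under 0.05 (limma, Benjamini-Hochberg over all tested genes). They were hsp70-5, hsp60 and hsp70-1, which were 1.43-fold, 1.29-fold and 1.25-fold higher in the mutant. None of the 6 fell. The other 3, hsp80, hsp30 and hsp98, were between 1.05-fold and 1.09-fold higher in the mutant means and did not pass the test. For comparison, 24.0% of all tested genes were called higher and 23.8% lower, 47.8% in all. The median log2 fold change of the 6 genes was 0.23, and that of all tested genes was 0.01.

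**Figure D1:**
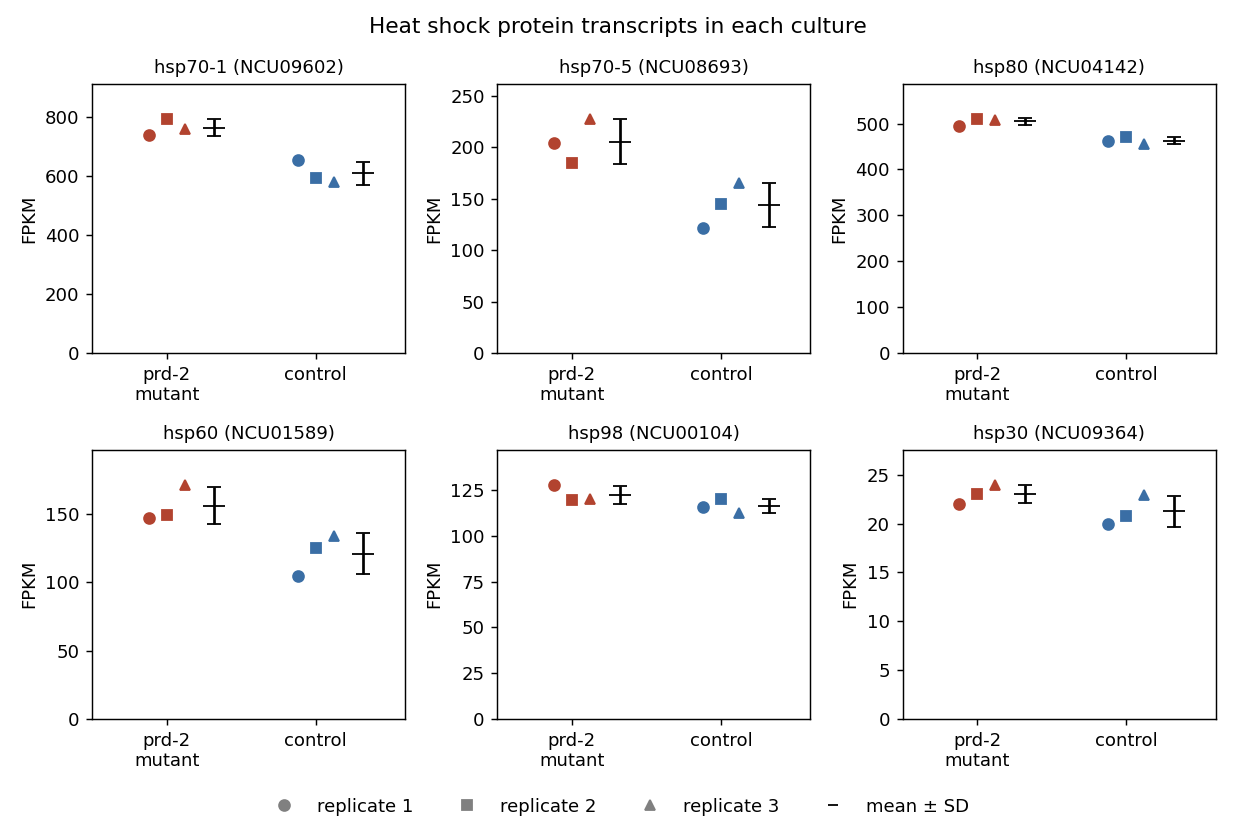
FPKM of the 6 heat shock proteins in each culture, one panel per gene, with 3 prd-2 mutant cultures (red) left of 3 control cultures (blue). Symbols mark the replicate number, black bars the mean ± SD, and all axes start at 0. The groups do not overlap for hsp70-1, hsp70-5, hsp80 and hsp60, and they overlap for hsp98 and hsp30.

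Among the HSP70 genes, hsp70-1, which encodes a cytosolic HSP70, was the most abundant of the 6 transcripts. It measured 738.9, 793.6 and 758.3 FPKM in mutant replicates 1 to 3, and 653.4, 594.7 and 577.9 FPKM in control replicates 1 to 3. Every mutant culture lay above every control culture, and control replicate 1 stood highest among the controls. The means were 763.6 ± 27.7 FPKM in the mutants and 608.7 ± 39.7 FPKM in the controls (SD, n = 3 each), with a log2 fold change of 0.33 (SE 0.067; 95% interval 0.17 to 0.48; adjusted p = 0.00589 by limma). By mean level it ranked 157 of 9730 genes in the mutants and 185 in the controls.

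The second HSP70 gene, hsp70-5, had the largest change of the 6. Its values were 204.0, 184.6 and 227.8 FPKM in mutant replicates 1 to 3, and 121.5, 145.0 and 164.9 FPKM in control replicates 1 to 3. The groups did not overlap, although mutant replicate 2 and control replicate 3 were closer to each other than to the extremes of their own groups. The means were 205.5 ± 21.6 FPKM in the mutants and 143.8 ± 21.7 FPKM in the controls (SD, n = 3 each), with a log2 fold change of 0.52 (95% interval 0.23 to 0.81, SE 0.123, adjusted p = 0.0113 by limma). This change ranked 589 of 7797 tested genes from the largest rise downwards, and the median among all genes called higher was 0.38 log2 units. The RefSeq table gives no compartment for hsp70-5, so it is not taken here as a cytosolic HSP70.

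The HSP90 gene hsp80 was the second most abundant and the most even. It measured 495.1, 510.4 and 508.7 FPKM in mutant replicates 1 to 3, and 463.0, 469.9 and 454.5 FPKM in control replicates 1 to 3. The groups did not overlap, but the gap between them was narrow and the adjusted p missed the threshold. The means were 504.7 ± 8.39 FPKM in the mutants and 462.5 ± 7.72 FPKM in the controls (SD, n = 3 each), and the log2 fold change was 0.13 (95% interval 0.01 to 0.24, SE 0.050; in limma unadjusted p = 0.0375 and adjusted p = 0.072). The estimate was 0.04 with quantile normalization (limma adjusted p = 0.475) and 0.09 on the TPM scale (limma adjusted p = 0.166). Its pooled SD within strains, 0.024 log2 units, lay at percentile 1.42 of the tested genes, whose median was 0.094. The moderated standard error is larger than this gene's own spread gives, because limma draws the spread of each gene towards that of genes with a similar level.

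The mitochondrial chaperonin gene hsp60, whose product folds imported proteins in the matrix, measured 146.6, 149.0 and 171.0 FPKM in mutant replicates 1 to 3. The control replicates had 104.2, 124.8 and 133.4 FPKM. All 3 mutant cultures were higher than the highest control, with mutant replicate 3 well above the other mutants and control replicate 1 well below the other controls. The means were 155.6 ± 13.5 FPKM in the mutants and 120.8 ± 15.0 FPKM in the controls (SD, n = 3 each), and the log2 fold change was 0.37 (95% interval 0.12 to 0.61, SE 0.104, adjusted p = 0.0236 by limma). The call was lost without mutant replicate 3 (log2 fold change 0.30, limma adjusted p = 0.0708) and without control replicate 2 (log2 fold change 0.39, limma adjusted p = 0.0519), which leaves 2 of the 6 genes called in each case.

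The HSP100 gene hsp98, whose product works with HSP70 on aggregated proteins, had 127.9, 119.4 and 119.8 FPKM in mutant replicates 1 to 3, and 115.8, 120.1 and 112.7 FPKM in control replicates 1 to 3. Control replicate 2 lay above mutant replicates 2 and 3, so the groups overlapped. The log2 fold change was 0.07 (95% interval -0.05 to 0.20, SE 0.054, adjusted p = 0.291 by limma). With quantile normalization its sign turned, to -0.0088 (limma adjusted p = 0.910).

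The small heat shock protein gene hsp30, whose product associates with mitochondria during heat shock in Neurospora, was the least abundant. It measured 22.1, 23.1 and 24.0 FPKM in mutant replicates 1 to 3, and 19.95, 20.8 and 23.0 FPKM in control replicates 1 to 3. Control replicate 3 was above mutant replicate 1, and the groups overlapped. The log2 fold change was 0.11 (95% interval -0.04 to 0.27, SE 0.067, adjusted p = 0.202 by limma). The annotated span of hsp30 overlaps that of NCU10352, and the sources do not say how shared reads were counted, so its value is uncertain. It ranked 3834 of 9730 genes by mean level in the mutants and 4036 in the controls.

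**Figure D2:**
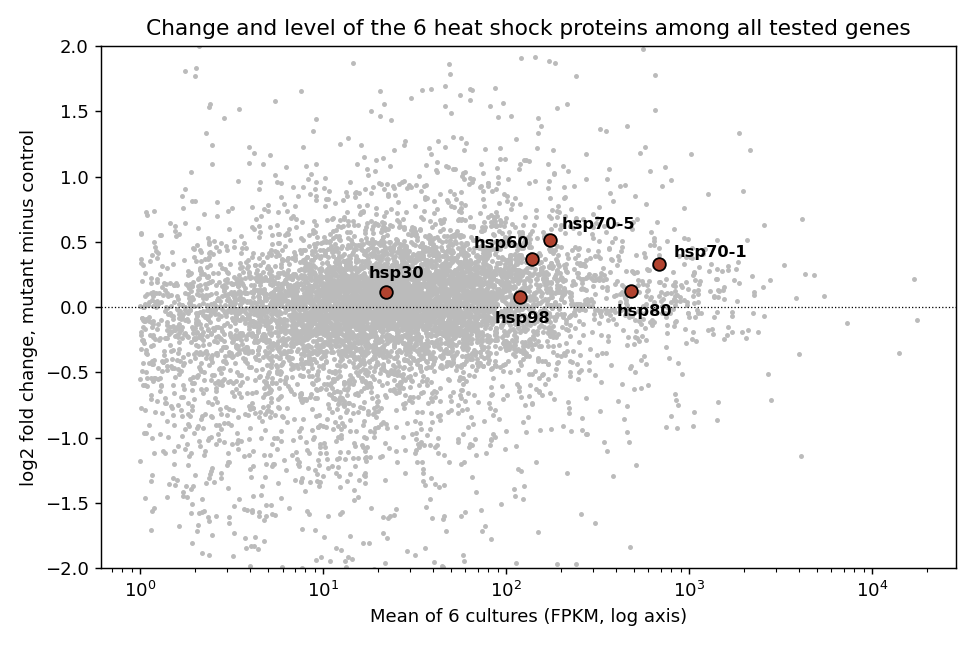
Log2 fold change (mutant minus control, log2(FPKM + 1) scale) against mean FPKM of the 6 cultures (log axis) for 7797 tested genes (grey) and the 6 heat shock proteins (red). The vertical axis is limited to 2 log2 units either way, which leaves out 137 genes; the 6 genes lie between 0.07 and 0.52 log2 units.

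Separation between the groups was seen for 4 of the 6 genes, all with the mutant higher, where 30.5% of all tested genes were separated in that direction and 29.3% in the other. FPKM is scaled by length, so levels can be set beside each other. In the mutants the order by mean FPKM was hsp70-1, hsp80, hsp70-5, hsp60, hsp98 and hsp30, and no neighbours in it overlapped. The controls had the same order of means, but there the ranges of hsp70-5 and hsp60 overlapped, as did those of hsp60 and hsp98. The means of hsp60 and hsp98 were 1.27-fold apart in the mutants and 1.04-fold apart in the controls. Together the 6 genes held 0.258% to 0.264% of summed FPKM in the mutants and 0.220% to 0.223% in the controls, a sum to which hsp70-1 gave the most.

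The spread among cultures of a strain was not the same for each gene. For hsp70-5 the SD was 10.5% of the mean in the mutants and 15.1% in the controls, and for hsp60 it was 8.66% and 12.4%. Both lay in the upper part of the tested genes by pooled SD, at percentiles 86.8 and 79.2. In contrast hsp98 lay at percentile 14.3, hsp70-1 at 34.9 and hsp30 at 40.3. Control replicate 1, the lowest control for hsp70-5, hsp60 and hsp30, was the highest control for hsp70-1. Mutant replicate 3 was the highest mutant for hsp70-5, hsp60 and hsp30, while mutant replicate 2 was the highest for hsp70-1 and hsp80.

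Ratios between members within a culture do not change when each library is scaled by a single factor, though quantile normalization can change them. All 15 pairs were compared with two-sided exact permutation tests on the log2 ratio, where 3 cultures against 3 cannot give a p below 0.1. In 6 pairs the ratio was higher in every mutant culture than in every control culture (p = 0.1 each by the exact permutation test, 0.25 adjusted over the 15 pairs), and in the other 9 the groups overlapped. The ratio of hsp70-1 to hsp80 was 1.49, 1.55 and 1.49 in mutant replicates 1 to 3, and 1.41, 1.27 and 1.27 in control replicates 1 to 3. The ratio of hsp70-5 to hsp60 was 1.39, 1.24 and 1.33 in mutant replicates 1 to 3, and 1.17, 1.16 and 1.24 in control replicates 1 to 3, so mutant replicate 2 and control replicate 3 nearly met. The remaining separated pairs were hsp70-1 over hsp98, hsp70-5 over hsp98, hsp70-5 over hsp30 and hsp60 over hsp30. The gene put first in a pair sets the direction, and the 15 pairs share the same 6 genes. Other gene pairs were not counted, so nothing is read from the number of separated pairs. For the 2 HSP70 genes, hsp70-1 over hsp70-5 averaged 3.75 ± 0.497 in the mutants and 4.33 ± 0.956 in the controls (SD, n = 3 each; exact permutation p = 0.5, 0.625 adjusted), which does not show that they changed alike.

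**Figure D3:**
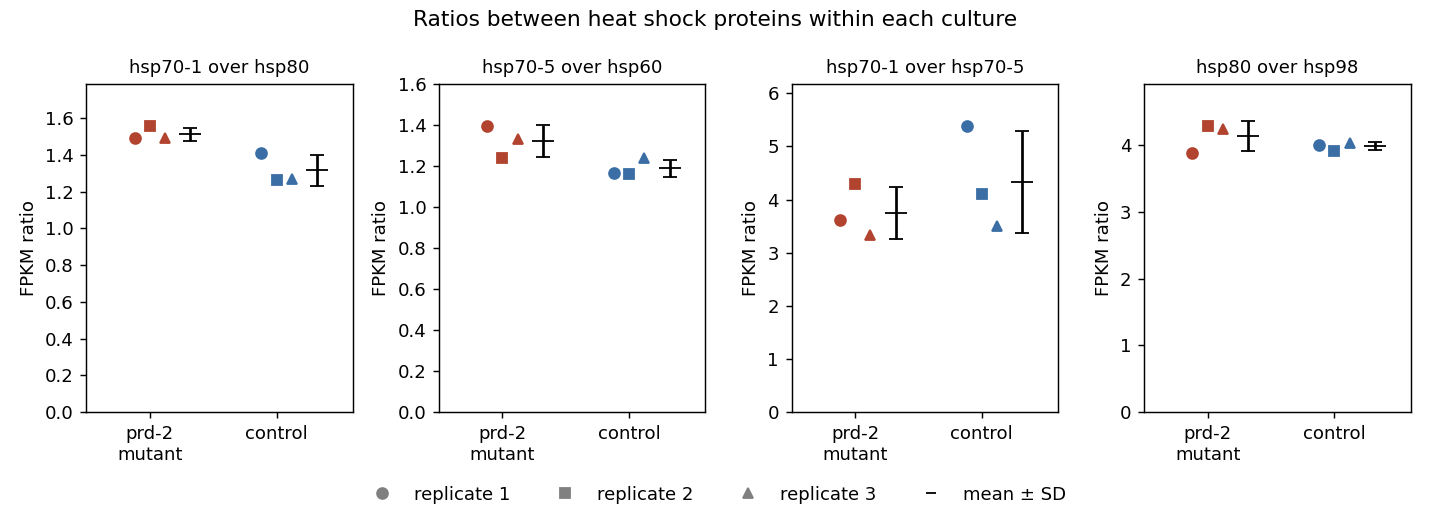
FPKM ratios between pairs of heat shock proteins in each culture, prd-2 mutant (red) left of control (blue), with symbols for the replicate number, mean ± SD in black and axes from 0. The ratios hsp70-1 over hsp80 and hsp70-5 over hsp60 are higher in all 3 mutant cultures, and hsp70-1 over hsp70-5 and hsp80 over hsp98 overlap between the strains.

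The other genes with chaperone or heat shock factor symbols in the RefSeq table formed a list of 7, all tested. Of these, 4 rose (hsp90a, hsf-2, hsp78 and hsp70-2), 1 fell (grp78) and 2 did not pass the test (hsp88 and hsf-1), with a median log2 fold change of 0.15. With 24.0% of all tested genes called higher and 23.8% lower, calls in both directions are found across the transcriptome, and nothing is read from the list's count. The table gives symbols and no descriptions, so other chaperones that carry no such symbol are outside the list.

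The gene hsp90a (NCU01792) had the largest change of the list. It measured 266.5, 276.7 and 283.9 FPKM in mutant replicates 1 to 3, and 192.7, 208.2 and 198.2 FPKM in control replicates 1 to 3, with every mutant far above every control. Its log2 fold change was 0.46 (limma SE 0.055, adjusted p = 0.000533), and the call held in the 14 alternative settings. The symbol hsp90a comes without a description, so whether this gene encodes an HSP90 protein is not known here. The gene for the heat shock factor hsf-2 (NCU08480) averaged 29.8 ± 2.15 FPKM in the mutants and 24.7 ± 1.59 FPKM in the controls (SD, n = 3 each), with a log2 fold change of 0.26 (limma SE 0.073, adjusted p = 0.021). That call was lost without mutant replicate 1 or 2 and without control replicate 1 or 2, where adjusted p lay between 0.0521 and 0.0759. The other heat shock factor gene, hsf-1 (NCU08512), averaged 15.1 ± 1.24 FPKM in the mutants and 15.8 ± 0.502 FPKM in the controls (SD, n = 3 each; log2 fold change -0.07, limma adjusted p = 0.478), and its span overlaps those of NCU10388 and NCU14141.

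Relatives of the 6 genes by family were also measured. The gene hsp78 (NCU02630), whose yeast namesake is an HSP100 protein of the mitochondrial matrix, had a log2 fold change of 0.22 (limma SE 0.057, adjusted p = 0.0155), which was lost without control replicate 2 (adjusted p = 0.0622). A further HSP70 gene, hsp70-2 (NCU02075), averaged 351.2 ± 4.82 FPKM in the mutants and 316.2 ± 12.8 FPKM in the controls (SD, n = 3 each; log2 fold change 0.15, limma adjusted p = 0.0493). Its call was lost in each of the 6 fits that left out a culture, with adjusted p between 0.060 and 0.121. The HSP70-related gene hsp88 (NCU05269), of the HSP110 family, averaged 177.5 ± 2.33 FPKM in the mutants and 178.1 ± 10.2 FPKM in the controls (SD, n = 3 each; log2 fold change -0.004, 95% interval -0.14 to 0.13, limma adjusted p = 0.960).

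The HSP70 of the endoplasmic reticulum, grp78 (NCU03982, also called BiP), moved the other way. It measured 316.0, 354.6 and 335.8 FPKM in mutant replicates 1 to 3, and 394.0, 398.0 and 377.8 FPKM in control replicates 1 to 3, and every mutant lay below every control. The log2 fold change was -0.22 (limma SE 0.061, adjusted p = 0.0223). The call was lost without mutant replicate 1 or 3 and without control replicate 2, with adjusted p between 0.0543 and 0.0837. Among the genes with HSP70 symbols and grp78, then, hsp70-1, hsp70-5 and hsp70-2 were called higher in the mutant and grp78 was called lower. The call of hsp70-2 was lost in every fit that left out a culture, and that of grp78 in some. The related gene hsp88 was not called in either direction.

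**Figure D4:**
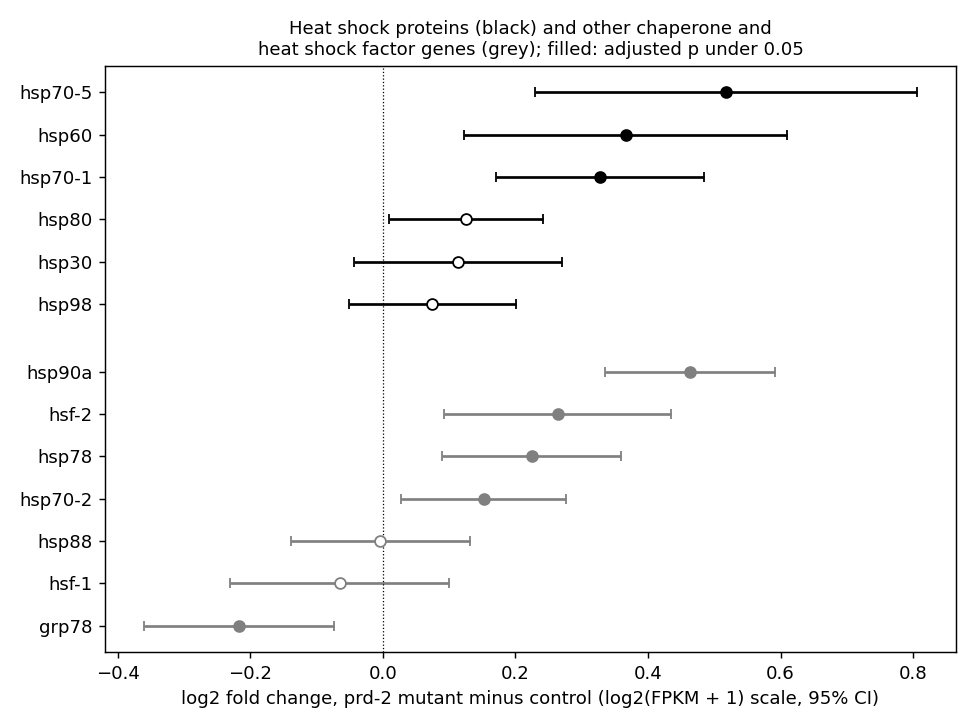
Log2 fold changes (prd-2 mutant minus control, log2(FPKM + 1) scale) with 95% intervals from limma for the 6 heat shock proteins (black) and the 7 other listed genes (grey). Filled points passed an adjusted p of 0.05: hsp70-5, hsp60 and hsp70-1 among the 6, and hsp90a, hsf-2, hsp78, hsp70-2 and, below 0, grp78 among the 7.

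Because HSP60 folds proteins that enter mitochondria, the 18 genes with tim or tom symbols, which encode the protein import machinery of mitochondria, were set beside it. This list was chosen after the values of the 6 genes had been seen. All 18 were tested; 3 rose, 4 fell and 11 did not pass, with a median log2 fold change of 0.10. Over all tested genes 24.0% were called higher and 23.8% lower, so the calls on the list were no more frequent than elsewhere and are given as values of single genes. Those that rose were tim50 (0.43 log2 units, SE 0.097), a receptor of the inner membrane channel, tim44 (0.38, SE 0.085), which tethers a matrix HSP70 to that channel, and tim54 (0.38, SE 0.102). Those that fell were tom5, by 0.44 log2 units (SE 0.067), tim8, by 0.33 (SE 0.083), the receptor gene tom20, by 0.30 (SE 0.052), and the outer membrane pore gene tom40, by 0.21 (SE 0.072). Calls lost when a culture was left out were tim54 (control replicate 2), tim8 (control replicate 2 or 3) and tom40 (mutant replicate 1 or 2, control replicate 2 or 3). With a culture left out, 2 to 5 genes on the list rose and 2 to 4 fell. The fewest rose without control replicate 2 and the most without mutant replicate 2. The fewest fell without control replicate 2 or 3. The spans of tim44, tim54, tim8 and tom5 overlap those of other genes, so their values are uncertain.

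For each of the 6 genes, the 2 other tested genes with the closest pattern were found by Pearson r of log2(FPKM + 1) over the 6 cultures, a description in which the strain difference and the shared libraries weigh heavily. Closest to hsp70-1 were NCU06605 (dim-8; r = 0.998) and NCU08334 (r = 0.996). Closest to hsp70-5 were NCU05208 (r = 0.999), whose span overlaps those of NCU05207 and NCU05209, and NCU04016 (r = 0.999), and closest to hsp60 were NCU01657 (r = 0.999) and NCU02757 (r = 0.998). For hsp80 they were NCU06761 (r = 0.998) and NCU07165 (r = 0.998). Lower values were found for hsp30, with NCU09744 (r = 0.989) and NCU06749 (r = 0.987), and for hsp98, with NCU09980 (r = 0.981) and NCU07584 (r = 0.981). An r over 0.9 was reached by 929 of the 7796 other genes for hsp80, 817 for hsp70-5, 700 for hsp70-1, 683 for hsp60, 151 for hsp30 and 22 for hsp98.

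Spores (conidia) are another cell type that a mycelial culture can hold, and 7 marker genes of conidia or of their formation were looked up. Of these 6 were tested, of which 2 rose (con-6 and acon-3) and 2 fell (con-8 and con-10), where 24.0% of all tested genes were called higher and 23.8% lower. Their summed level was 1359 to 3194 FPKM in the mutants and 1816 to 1994 FPKM in the controls. The high end came from mutant replicate 1, in which eas, a hydrophobin gene, stood at 2382 FPKM. Without eas the sum was 725 to 812 FPKM in the mutants and 1152 to 1303 FPKM in the controls. Most of that sum was con-8, at 552 to 629 FPKM in the mutants and 1062 to 1217 FPKM in the controls. It therefore mainly follows a single gene. In the other direction, con-6 averaged 117.2 FPKM in the mutants and 19.5 FPKM in the controls. The marker con-13 was the one listed at 0, in 2 cultures of each strain. The call of con-10 was lost in 5 of the 6 fits that left out a culture, all but that without control replicate 3, and that of acon-3 without mutant replicate 1 or control replicate 2, and con-6 overlaps NCU08768. The part of spores in the heat shock protein results was not tested. In these bulk samples, fewer cells of a type and less RNA per cell cannot be told apart.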

How the data were processed

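Polyadenylated RNA of 6 cultures was sequenced as directional, paired-end reads of 150 bp, per the labels' protocols. The deposited values are FPKM, made by the authors with STAR and Cuffnorm, per the submitters' processing notes, which give no version. The genome build, the annotation, the use of strand and the scaling between libraries are not given in the sources used here. Absolute depth is unknown; from ratios of values below 0.15 FPKM, 1 fragment was worth 0.963 to 1.127 times as much FPKM as in control replicate 1 (58.2% to 88.8% of ratios in the other 5 cultures lay within 0.5% of ratios of whole numbers up to 4).

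Symbols came from the RefSeq NC12 table (9729 of 9730 locus tags matched), which also gave overlapping spans. Genes with a mean of at least 1 FPKM were tested as log2(FPKM + 1) with limma 3.58.1 (variance trend) in R 4.3.3, with a threshold of 0.05 on Benjamini-Hochberg adjusted p. The log2(FPKM + 1) scale understates changes of low genes. On simulated data the fit called 191 of 200 genes changed by 1 log2 unit and 12 of the unchanged genes among 7797. The 6 genes changed by 0.07 to 0.52 log2 units, so the simulated call rate does not apply to changes of their size. Ratios were tested in Python 3.11.15 with scipy 1.17.1. Named genes were the 6 members, prd-2, chaperone and heat shock factor genes by symbol, the 2 genes most alike to each member, and markers of conidia or their formation. The members and lists were chosen with earlier results of these data known. Alternatives were another pseudocount, filter or scaling, no trend, the replicate number as a block, and fits with 1 culture left out; those for import genes, spore markers and most-alike genes were chosen after seeing the data. No sequence of the 6 genes was used here.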

Additional observations from a re-analysis of the deposited data

How the results depend on the processing

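The 3 calls among the 6 heat shock proteins (hsp70-5, hsp60 and hsp70-1) held in the 8 alternatives that used all 6 cultures. The smallest changes among these 8 came with quantile normalization. They were 0.440 for hsp70-5, 0.299 for hsp60 and 0.233 for hsp70-1, against 0.517, 0.366 and 0.328 in the reported fit. Leaving out each culture in turn gave 2 to 3 called members, with log2 fold changes of 0.264 to 0.441 for hsp60, 0.403 to 0.621 for hsp70-5 and 0.292 to 0.380 for hsp70-1; the 2 losses were both of hsp60 (without mutant replicate 3 or control replicate 2). No alternative called hsp80, hsp98 or hsp30. The sign of hsp98 turned with quantile normalization (-0.0088), and that of hsp88 with median centring (0.01) and within the fits leaving out a culture (-0.0469 to 0.0351); the cause was not tested. The chaperone list had 2 genes higher on the TPM scale and 2 with the replicate block, against 4 in the reported fit, and 1 to 3 higher and 0 to 1 lower when a culture was left out. On the TPM scale the lost calls were those of hsp70-2 (0.118, limma adjusted p = 0.137) and hsf-2 (0.2335, limma adjusted p = 0.05365). The call of hsp70-2 was also lost with quantile normalization (0.0645) and without the variance trend, and that of tom40 without the trend. Over the alternatives the median log2 fold change of tested genes ran from -0.023 to 0.0467.

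A replicate block gave 3363 called genes, against 3725 without it. The block ended the calls of hsp70-2 (adjusted p = 0.0729) and hsf-2 (adjusted p = 0.0571) and no member's call. Deviations of same-numbered cultures from their strain means correlated across genes at -0.104, -0.175 and 0.068 for numbers 1, 2 and 3. Over all genes the numbers thus showed no clear pairing, which cannot decide the question for single genes. With the block, the SE fell for hsp60 (0.104 to 0.065), hsp70-5 (0.123 to 0.089) and hsp30 (0.067 to 0.054). The SE rose for hsp70-1 (0.067 to 0.071), hsp80 (0.050 to 0.053) and hsp98 (0.054 to 0.056). No depth is known that would set the precision of hsp30 and other low genes apart from the spread between cultures.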
